A study of Mus musculus with 10 samples.

Results

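The genes described are the SR proteins (Srsf), the heterogeneous nuclear ribonucleoproteins (hnRNPs), the SF3A and SF3B subunits, the Snrp proteins of the small nuclear ribonucleoproteins (snRNPs), the pre-mRNA processing factors (Prpf), the U2AF subunits and Sfpq. They were chosen by gene symbol among protein-coding genes of GENCODE M21, by a rule that uses no measured value but was proposed with earlier results of these data known, and came to 69 of the 55471 genes in the deposited tables. The classes hold 11 Srsf, 20 hnRNP, 9 SF3, 12 Snrp, 13 Prpf and 3 U2AF genes, and Sfpq. Another 5 genes with matching symbols are annotated as processed pseudogenes and were left out.

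Total RNA of primary mouse microglia, the resident macrophages of the brain, was sequenced in 10 libraries, 5 from cells given a gapmer against the long noncoding RNA 3222401L13Rik and 5 from cells given a control gapmer. Gapmers are antisense oligonucleotides that recruit RNase H to the RNA they pair with. Both groups were WT cells kept in DMEM medium with FBS, and both received a gapmer, so neither is untreated. The labels used here do not give the age of the mice, the gapmer dose or the treatment time, and they do not say that the replicates are different cultures or mice; p-values thus measure the spread between these libraries, which may be technical.

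Splicing removes introns from pre-mRNA in the spliceosome, which is assembled anew on each intron. U1 snRNP pairs with the 5′ splice site, U2AF binds the polypyrimidine tract and the AG of the 3′ splice site, and SF3A and SF3B hold U2 snRNP on the branch point before the tri-snRNP and the PRP19 complex join and catalysis begins. SR proteins mostly promote exon inclusion by binding exonic enhancers, and many hnRNPs oppose them or mask splice sites. Both families also act in RNA export, stability and translation.

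The knockdown-labelled libraries held 5593627 to 6636082 reads and the control libraries 4321316 to 5639040 reads. The targeted RNA did not differ beyond the spread between libraries: the libraries labelled knockdown had 22, 38, 24, 33 and 29 reads (29.2 ± 6.53, SD, n = 5), against 28 to 34 reads in the control libraries (30.8 ± 2.59, SD, n = 5; log2 fold change -0.17, SE 0.23, edgeR quasi-likelihood adjusted p = 0.541). The libraries labelled knockdown are therefore named by their label throughout. The libraries also differed in reads over 1135 olfactory receptor genes, odorant receptors of nasal sensory neurons, which serve here as a measure of background: as CPM (counts scaled to the library total) for each kilobase of their exons, 0.188 to 0.343 in the knockdown-labelled libraries, against 0.425 to 0.816 in the control libraries, with no overlap between the groups. That density times exon length gives the reads predicted for each gene from background alone, and their percentage of the gene's reads over the 10 libraries is called its background share. Summed over 12 microglia markers, expression was 4440 to 5120 CPM in the knockdown-labelled libraries and 3670 to 4440 CPM in the control libraries. Here and below CPM is also scaled by edgeR's TMM method. edgeR's test, described below, called 11 of the 12 higher. Their median background share was 0.424%, and of all genes with a share under 5%, 75.5% were called higher. Sums over 12 neuronal markers were 42.7 to 66.2 CPM in the knockdown-labelled libraries against 80.4 to 118 CPM in the control libraries, with 9 of 11 tested called lower and a median background share of 47.6%. Fibroblast and mural markers summed to 12.8 to 25.5 CPM in the knockdown-labelled and 30.5 to 42.6 CPM in the control libraries, with 4 of 4 tested lower and a median share of 84.2%. Of all genes with a share of 5% or more, 5.83% were called higher and 41.3% lower. Sums for astrocytes (134 to 163 CPM in the knockdown-labelled, 140 to 156 in the control libraries), the oligodendrocyte lineage (knockdown-labelled 100 to 111, control 104 to 110) and endothelium (knockdown-labelled 134 to 143, control 126 to 146) overlapped between groups. Calls were 2 higher and 2 lower of 7 tested for astrocytes, 0 higher and 2 lower of 7 for the oligodendrocyte lineage, and 1 higher and 2 lower of 3 for endothelium, whose sum is mostly Flt1 (mean 128 CPM in the knockdown-labelled and 116 CPM in the control libraries). No marker of any list was at 0 in all libraries, and the part of other cells in the results below was not tested. In bulk RNA, fewer cells of a type and less RNA per cell cannot be told apart.

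Across the splicing genes, levels were moderately higher in the libraries labelled knockdown on the TMM scale. Of the 69 genes, 66 passed the filter on low counts. edgeR's quasi-likelihood test with Benjamini-Hochberg adjustment over all 19263 tested genes called 44 of them higher, where 22.9% of all tested genes were called higher, and 2 lower (Snrpn and Srsf12), where the background was 31.3%. The other 20 were not called. The median log2 fold change was 0.25 over the splicing genes (range -0.96 to 0.45), against -0.095 over all tested genes. In 26 splicing genes all 5 knockdown-labelled libraries lay above all 5 control libraries, which held for 12.6% of all tested genes, and in 2 tested ones, Snrpn and Snrpg, they lay below, which held for 14.2%.

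The splicing genes had little predicted background, with a median share of 2.72% against 17.4% over all tested genes, and the fold change of tested genes followed that share. Among genes with a share under 5%, 75.5% of 4728 were called higher and 0.486% lower, with a median log2 fold change of 0.24. The 44 splicing genes in that range had 37 called higher (84.1%) and 0 lower, with a median of 0.27, near the values of the other genes in it. At a share of 5% or more, 5.83% of all 14535 genes were called higher and 41.3% lower, with a median of -0.44. There 7 of 22 splicing genes were called higher and 2 lower, and their median share was 8.26%, against 29.2% for all genes in that range. Whether the share accounts for these calls was not tested.

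**Figure D1:**
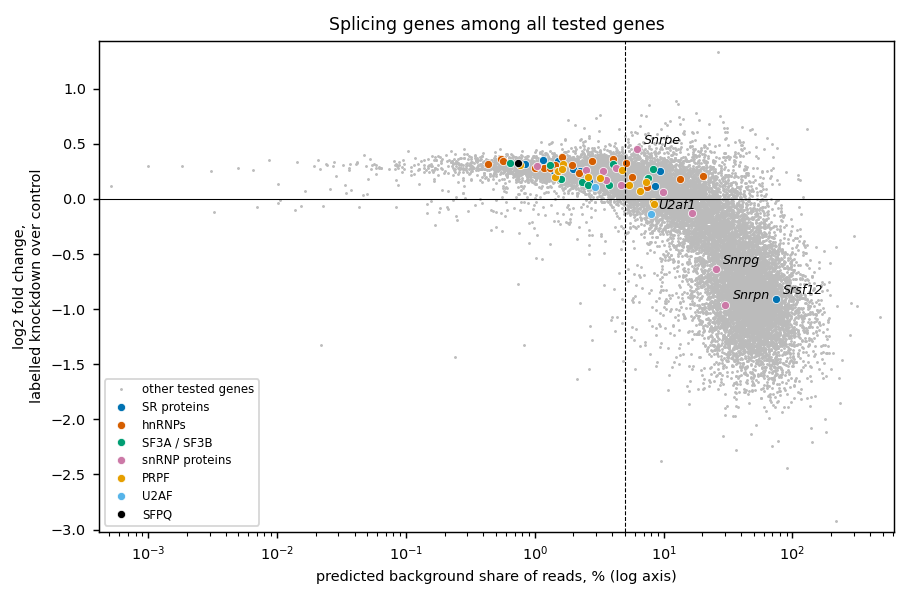
Log2 fold change (labelled knockdown over control, TMM scale) of every tested gene against its predicted background share in percent on a log axis. Coloured points are the 66 tested splicing genes by class, grey points are the other tested genes, and the dashed line marks a share of 5%; the splicing genes under 5% lie inside the grey band, while Snrpn and Srsf12 lie among genes with high shares.

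When only the 4728 genes under a 5% share, called low-background genes below, were scaled against each other and tested again, 2 of the 44 splicing genes were called higher, Hnrnpa2b1 and Hnrnpu, against a background of 2.18% higher, and 0 were called lower against a background of 1.88% (edgeR's quasi-likelihood test, with 7 higher and 2 lower at an unadjusted p under 0.05). Their median log2 fold change was 0.029 (range -0.14 to 0.13), with 30 of 44 above 0, and the median of all 4728 genes was -0.002. With the predicted background also subtracted from the counts, 0 of 44 were called in either direction, against a background of 0.761% higher and 1.04% lower, and 5 were higher and 2 lower at an unadjusted p under 0.05. Within sequencing lanes, which held both groups, edgeR called 41 of 65 tested splicing genes higher and 1 lower in lane 7 (replicates 1 to 3; background 20.7% and 28.9%), with a median log2 fold change of 0.29. In lane 8 (replicates 4 and 5) edgeR called 0 of 67 (background 0.328% and 0.749%), with 29 higher and 0 lower at an unadjusted p under 0.05 and a median of 0.24. By other fits, 50 were called higher and 1 lower with DESeq2's Wald test (background 25.9% and 26.2%), 24 higher and 3 lower with upper-quartile scaling (8.75% and 37.4%) and 13 higher and 6 lower with library totals alone (3.94% and 40.9%). A filter of 5 CPM in 5 libraries gave 26 higher and 0 lower (17.1% and 18.7%), with 0 lower at an unadjusted p under 0.05 as well. With the background density as a covariate edgeR called 0 in either direction (0.0208% and 0.0831%), with 4 higher and 3 lower at an unadjusted p under 0.05. That density did not overlap between the groups, so this fit can hardly tell the group from the background, and few calls are left for any gene.

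**Figure D2:**
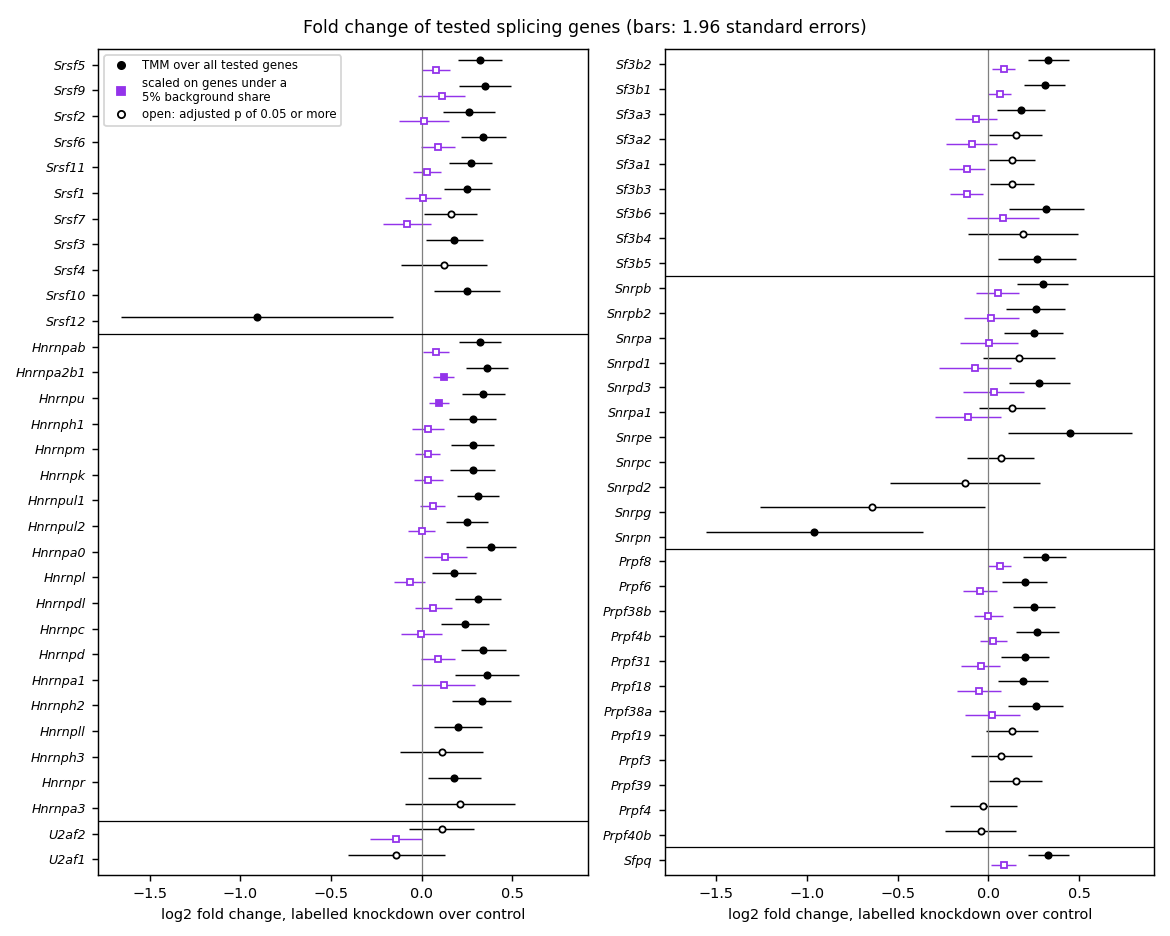
Log2 fold change of the tested splicing genes reported here, labelled knockdown over control, by class and in order of level, with bars for the 95% interval from the standard error. Black circles are on the TMM scale and purple squares are scaled on genes under a 5% background share; filled symbols have an adjusted p under 0.05, and of the squares Hnrnpa2b1 and Hnrnpu are filled.

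As a percentage of all reads, with no scaling, the 69 genes took 0.779, 0.787, 0.8, 0.796 and 0.786% in the libraries labelled knockdown (0.79 ± 0.00841, SD, n = 5), against 0.771, 0.715, 0.731, 0.73 and 0.758% in the control libraries (0.741 ± 0.0228, SD, n = 5). Every knockdown-labelled library lay above every control library. The total also counts background reads, whose density was higher in every control library than in any library labelled knockdown. Their part in this difference was not tested. The hnRNPs held the largest part, 0.359 ± 0.00498% of reads in the knockdown-labelled against 0.331 ± 0.0111% in the control libraries (SD, n = 5 each), and Hnrnpu alone made up 24.2% of hnRNP reads in the knockdown-labelled and 23.6% in the control libraries. Prpf genes held 0.158 ± 0.00113% in the knockdown-labelled and 0.152 ± 0.00585% in the control libraries, and SF3 genes 0.12 ± 0.00201% in the knockdown-labelled and 0.113 ± 0.00315% in the control libraries. Snrp genes held 0.029 ± 0.000602% in the knockdown-labelled and 0.0285 ± 0.00132% in the control libraries, and SR protein genes 0.0908 ± 0.00179% in the knockdown-labelled and 0.0853 ± 0.00278% in the control libraries. The ranges of the Prpf, SF3, Snrp and SR protein classes overlapped between groups, and the highest Prpf value was in a control library. The 3 U2AF genes held 0.00666 ± 0.000492% in the knockdown-labelled libraries and 0.00729 ± 0.000659% in the control libraries, the only class with the lower mean in the libraries labelled knockdown, again with overlapping ranges.

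Levels compared between genes are given as CPM per kilobase of exon. The highest was Hnrnpab, with 105 ± 4.57 in the knockdown-labelled and 83.7 ± 6.98 in the control libraries (SD, n = 5 each), followed by Hnrnpa2b1 (knockdown-labelled 84.8, control 66.0), Hnrnpu (knockdown-labelled 81.3, control 64.1), Sf3b2 (knockdown-labelled 71.1, control 56.5) and Sfpq (knockdown-labelled 61.6, control 49.0). Prpf8 (knockdown-labelled 59.3, control 48.0) and Srsf5 (knockdown-labelled 54.2, control 43.3) came next. The class median, over all 10 libraries, was 23.1 CPM per kilobase for hnRNPs, then 18.3 for Srsf, 16.0 for SF3, 12.9 for Prpf, 7.71 for Snrp and 5.14 for U2AF, while Sfpq, a class of 1 gene, was at 55.3. Of the 68 neighbours in the order of levels over all 69 genes, 60 had overlapping ranges in the knockdown-labelled and 62 in the control libraries, so single steps in that order mostly did not exceed the spread. Hnrnpa2b1 and Hnrnpu overlapped in both groups, while Hnrnpab lay above Hnrnpa2b1 in both.

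**Figure D3:**
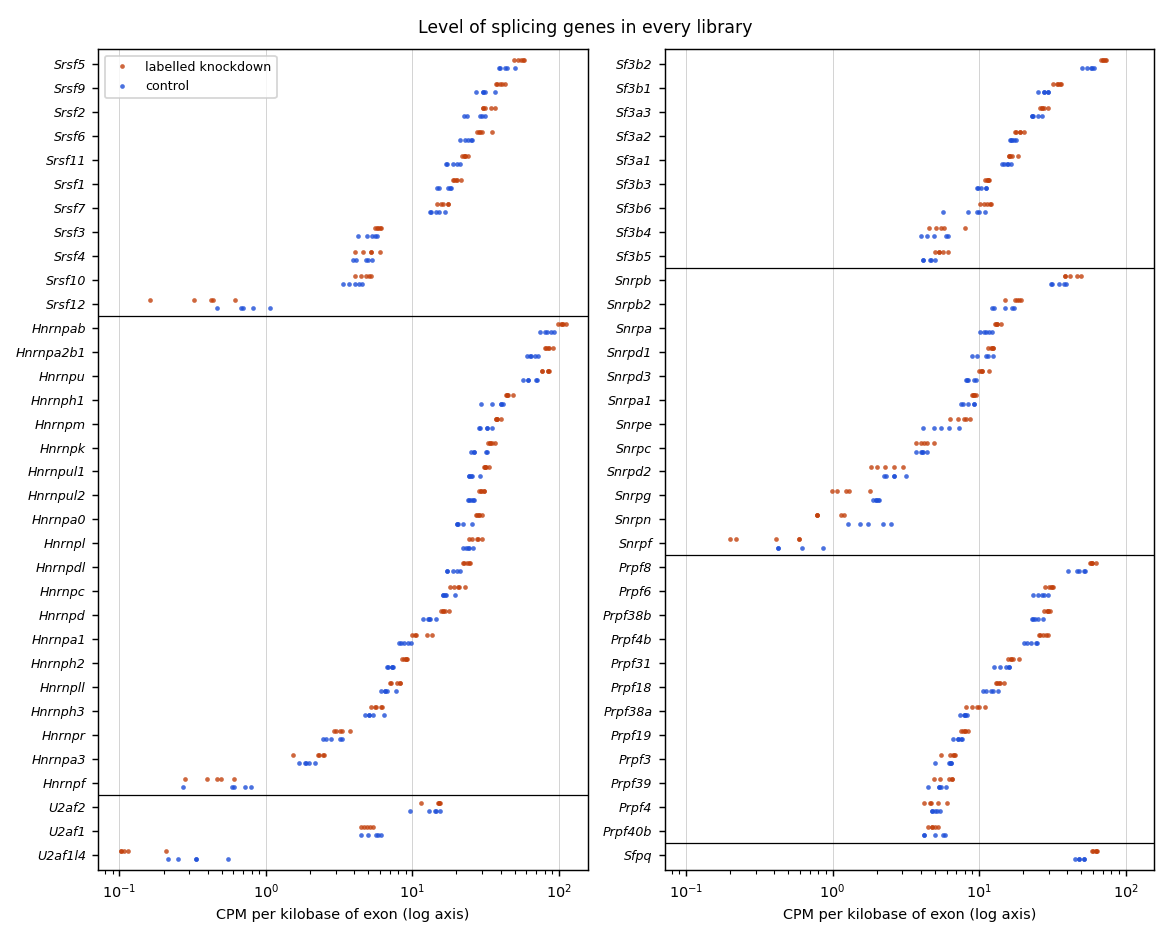
Level of the splicing genes reported here in CPM per kilobase of exon on a log axis, one point per library, with the 5 knockdown-labelled libraries drawn above the 5 control libraries of each gene. A library with 0 reads (Snrpf in one control library) is not drawn. Classes are separated by lines and genes ordered by level; Hnrnpab is highest, at 105 on average in the knockdown-labelled and 83.7 in the control libraries, and U2af1l4, Hnrnpf and Snrpf, with Srsf12, are at the foot of their classes.

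The promoters shown are those of the 2 genes still called after scaling on low-background genes (Hnrnpa2b1 and Hnrnpu), of Sf3b2 and Snrpe, which carry an ETS-type motif, and of the 2 genes called lower (Snrpn and Srsf12). Each is the RefSeq window of 250 bases before to 50 after a transcription start on GRCm38.p6, printed 5′ to 3′ on the gene's strand, with capitals marking CCGGAAG or its reverse complement CTTCCGG. Hnrnpa2b1 and Sf3b2 each have 2 windows in the table and Snrpn has 4, of which one is shown. The Snrpn window is also a window of Snurf.
Hnrnpa2b1 promoter, chr6:51469845-51470144, minus strand: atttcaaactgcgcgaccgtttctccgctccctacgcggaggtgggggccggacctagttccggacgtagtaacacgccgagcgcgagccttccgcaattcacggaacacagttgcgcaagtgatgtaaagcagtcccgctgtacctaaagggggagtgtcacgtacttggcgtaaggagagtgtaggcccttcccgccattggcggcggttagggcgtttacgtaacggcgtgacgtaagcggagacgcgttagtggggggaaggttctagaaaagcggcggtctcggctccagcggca
Hnrnpu promoter, chr1:178337766-178338065, minus strand: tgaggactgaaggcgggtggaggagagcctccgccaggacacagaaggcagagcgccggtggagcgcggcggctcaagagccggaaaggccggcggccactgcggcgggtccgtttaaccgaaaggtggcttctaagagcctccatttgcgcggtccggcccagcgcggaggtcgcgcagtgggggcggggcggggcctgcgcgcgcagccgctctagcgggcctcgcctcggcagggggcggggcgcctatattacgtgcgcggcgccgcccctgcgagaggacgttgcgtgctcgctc
Sf3b2 promoter, chr19:5295408-5295707, minus strand: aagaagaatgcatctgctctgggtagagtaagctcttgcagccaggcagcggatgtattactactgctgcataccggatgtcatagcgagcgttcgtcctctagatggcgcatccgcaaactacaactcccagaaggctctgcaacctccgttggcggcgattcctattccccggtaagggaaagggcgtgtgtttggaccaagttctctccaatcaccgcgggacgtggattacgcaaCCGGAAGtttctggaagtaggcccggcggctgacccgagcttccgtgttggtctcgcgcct
Snrpe promoter, chr1:133610231-133610530, minus strand: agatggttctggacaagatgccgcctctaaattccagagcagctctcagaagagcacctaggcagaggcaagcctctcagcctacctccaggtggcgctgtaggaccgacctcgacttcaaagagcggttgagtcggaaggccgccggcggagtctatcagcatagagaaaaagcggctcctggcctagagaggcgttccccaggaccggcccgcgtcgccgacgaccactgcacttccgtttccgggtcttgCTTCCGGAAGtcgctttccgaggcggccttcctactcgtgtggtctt
Snrpn promoter, chr7:60005150-60005449, minus strand: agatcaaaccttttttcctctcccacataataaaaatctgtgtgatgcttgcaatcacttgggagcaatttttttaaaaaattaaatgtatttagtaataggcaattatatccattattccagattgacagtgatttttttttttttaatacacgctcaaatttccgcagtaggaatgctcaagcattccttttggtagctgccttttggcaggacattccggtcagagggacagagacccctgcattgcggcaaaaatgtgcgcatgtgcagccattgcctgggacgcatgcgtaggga
Srsf12 promoter, chr4:33209022-33209321, plus strand: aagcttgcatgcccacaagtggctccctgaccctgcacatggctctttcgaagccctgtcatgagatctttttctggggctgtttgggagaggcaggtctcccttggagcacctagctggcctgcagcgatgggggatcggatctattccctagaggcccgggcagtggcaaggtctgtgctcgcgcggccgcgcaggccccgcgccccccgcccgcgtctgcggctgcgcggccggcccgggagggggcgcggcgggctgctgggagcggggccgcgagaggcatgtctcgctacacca
The Snrpe window holds both orientations overlapping in CTTCCGGAAG. The Snrpn window has 7 CpG dinucleotides, against 23 to 41 in the other 5 windows shown and a median of 25 over splicing-gene windows.

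RefSeq windows matched 60 of the 69 genes, 81 windows in all. The letters CCGGAAG, an ETS-family motif, occurred on either strand in 25 windows of 20 genes (30.9%), against 14.4% of 15388 windows of tested coding genes and 8.86% of all 32851 windows. Among these 20 genes were Sf3a1, Sf3a2 and Sf3a3, the whole of SF3A. GAGGAAGT, letters bound by the myeloid ETS factor PU.1, shares GGAAG with CCGGAAG but does not contain it. It occurred in 3.7% of splicing-gene windows, 2.9% of tested coding windows and 3.2% of all windows. TATAAA was in 8.64%, 8.47% and 13.6% of the same 3 sets, CCAAT in 48.1%, 36.9% and 37.4%, and GGGCGG in 63.0%, 56.3% and 35.7%. Motifs were searched on both strands and may overlap, windows of one gene can share bases, and a match describes letters only. The median CpG count was 25 in splicing-gene windows, 18 in tested coding windows and 7 in all windows.

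Among the SR proteins, 8 of 11 were called higher, 1 lower and 2 not called (median log2 fold change 0.25). Over all tested genes 22.9% were called higher and 31.3% lower. In 4 SR protein genes all knockdown-labelled libraries lay above all control libraries, which held for 12.6% of all tested genes. Of the 7 with a background share under 5%, 6 were called higher, where 75.5% of all genes in that range were. Srsf5, which binds exonic enhancers, was the highest of the class, with 208, 232, 226, 196 and 219 CPM in the knockdown-labelled libraries against 178, 156, 159, 171 and 199 in the control libraries. Its groups overlapped at one point, where control replicate 5 lay above knockdown-labelled replicate 4. The knockdown-labelled mean was 216 ± 14.3 CPM and the control mean 173 ± 17.3 CPM (SD, n = 5 for both), and the log2 fold change of 0.32 (SE 0.062, adjusted p = 2.87e-05) was 0.078 (adjusted p = 0.296) when scaled on low-background genes. Within lanes the value was 0.46 in lane 7 and 0.18 in lane 8. Srsf9, an SR protein with a short RS domain, had 63.0, 71.2, 61.6, 66.0 and 68.0 CPM in the libraries labelled knockdown, against 50.1, 45.1, 50.2, 51.6 and 61.1 in the control libraries. Every knockdown-labelled library was above every control library, the lowest by less than 1 CPM. That gave a log2 fold change of 0.35 (SE 0.0737, adjusted p = 9.9e-05), and 0.11 (adjusted p = 0.405) when scaled on low-background genes.

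Srsf12, a close relative of Srsf10 known as a splicing repressor, was near the background in these cells. It had 7, 8, 6, 11 and 3 reads in the libraries labelled knockdown, against 8, 16, 14, 12 and 12 in the control libraries, and its background share was 74.2%. The groups overlapped, and the mean was 1.23 ± 0.526 CPM in the knockdown-labelled against 2.34 ± 0.682 CPM in the control libraries (SD, n = 5 each). Of all genes with a share of 5% or more, 41.3% were called lower. Between the groups the log2 fold change of Srsf12 was -0.91 (SE 0.383, adjusted p = 0.0384). The gene passed the filter mainly through the control libraries, of which 4 reached the level the filter asks, against 1 of the libraries labelled knockdown. The call was lost in DESeq2 (adjusted p = 0.0745) and on leaving out any of 6 libraries, with adjusted p from 0.0559 to 0.138: knockdown-labelled replicates 2, 3 and 5 and control replicates 2, 3 and 4.

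Among the hnRNPs, 17 of 19 tested genes were called higher, 0 lower and 2 not called. Of all tested genes, 22.9% were called higher and 31.3% lower. The hnRNPs had a median log2 fold change of 0.28 (range 0.11 to 0.38), and in 13 the groups did not overlap, which held in that direction for 12.6% of all tested genes. All 14 with a background share under 5% were called higher, where 75.5% of all genes in that range were. Hnrnpa2b1, which binds RNA in splicing, transport and microRNA sorting, had 532, 559, 600, 539 and 563 CPM in the knockdown-labelled libraries, against 452, 402, 424, 417 and 476 in the control libraries. All 5 knockdown-labelled values were above all control values. edgeR gave a log2 fold change of 0.36 (SE 0.0582, adjusted p = 2.03e-06), and scaled on low-background genes it was 0.12 (SE 0.0302, adjusted p = 0.0139), one of the 2 calls there. With background subtracted too, it was 0.097 (adjusted p = 0.0716).

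Hnrnpu, a chromatin-associated scaffold protein that also acts in splicing, had the highest CPM of all the splicing genes, with 885, 970, 981, 892 and 988 CPM in the libraries labelled knockdown, against 806, 665, 719, 713 and 816 in the control libraries. The groups did not overlap. On the TMM scale its log2 fold change was 0.34 (SE 0.0595, adjusted p = 7.24e-06), 0.097 (SE 0.0284, adjusted p = 0.0361) scaled on low-background genes, and 0.077 (adjusted p = 0.14) with subtraction. Hnrnpab, a CArG-box-binding hnRNP, had 273, 292, 295, 308 and 288 CPM in the libraries labelled knockdown against 232, 206, 246, 225 and 256 in the control libraries, again with no overlap. Its log2 fold change was 0.32 (SE 0.0595, adjusted p = 1.86e-05) and 0.077 (adjusted p = 0.265) on the second scale. Exons of Phykpl on the other strand cover 29.1% of Hnrnpab's exon bases and Phykpl had 25.2 CPM, so the strand setting of the counting, which the sources do not state, bears on its level.

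Hnrnpa0, an hnRNP of the A/B family that binds AU-rich elements, had the largest log2 fold change of the hnRNPs, with 75.8, 79.4, 76.3, 74.5 and 72.7 CPM in the libraries labelled knockdown, against 59.7, 54.0, 54.8, 54.0 and 68.4 in the control libraries. The groups did not overlap, though control replicate 5 stood near the knockdown-labelled values. Its log2 fold change was 0.38 (SE 0.0702, adjusted p = 1.87e-05), and 0.13 (adjusted p = 0.225) scaled on low-background genes. Hnrnpa1, the classic antagonist of SR proteins at exonic silencers, had 33.5, 42.7, 32.9, 31.1 and 39.3 CPM in the knockdown-labelled libraries against 29.3, 25.6, 27.8, 26.2 and 30.7 in the control libraries, with knockdown-labelled replicate 4 just above the highest control library. With TMM the log2 fold change was 0.36 (SE 0.0913, adjusted p = 0.00082), and 0.12 (adjusted p = 0.519) on the second scale.

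Hnrnpa3, another A/B-type hnRNP, had 12.3, 13.4, 13.3, 12.4 and 8.18 CPM in the knockdown-labelled libraries, against 9.11, 11.6, 9.94, 10.7 and 10.2 in the control libraries. In 4 of the libraries labelled knockdown it was above every control library, and in replicate 5 it was below all of them. It was not called, with a log2 fold change of 0.21 (SE 0.155, adjusted p = 0.243), 0.38 in lane 7 and -0.0034 in lane 8. Without knockdown-labelled replicate 5 it was 0.35 (adjusted p = 0.0574), also not called. Hnrnpf, which binds G-tracts, did not pass the filter, with 8, 7, 11, 8 and 5 reads in the libraries labelled knockdown against 12, 4, 10, 13 and 10 in the control libraries and a background share of 79.2%. Its close relative Hnrnph1 was at 45.1 ± 1.97 CPM per kilobase in the knockdown-labelled against 37.2 ± 5.03 in the control libraries (SD, n = 5 each).

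U2AF had 0 of 2 tested genes called in either direction by edgeR on the TMM scale over all libraries, and both had an unadjusted p above 0.05 as well. The background over all tested genes was 22.9% higher and 31.3% lower. U2af2, the large subunit that binds the polypyrimidine tract, had 62.2, 62.5, 63.8, 47.4 and 61.2 CPM in the libraries labelled knockdown, against 63.2, 39.9, 58.7, 53.5 and 59.6 in the control libraries. The groups overlapped widely, and each had a low library, replicate 4 of the knockdown-labelled and replicate 2 of the control ones. The log2 fold change was 0.11 (SE 0.0915, adjusted p = 0.324), and -0.14 (adjusted p = 0.321) scaled on low-background genes. Without knockdown-labelled replicate 4 it was called, at 0.2 (adjusted p = 0.0334), and in lane 7 alone it was called at 0.23 (adjusted p = 0.0464), while without control replicate 2 it was 0.026 (adjusted p = 0.792). U2af1, the small subunit that reads the 3′ splice-site AG, had 12.7, 11.5, 14.0, 13.3 and 12.1 CPM in the libraries labelled knockdown against 11.7, 15.2, 14.5, 15.9 and 12.9 in the control libraries, overlapping, with a log2 fold change of -0.14 (SE 0.136, adjusted p = 0.393). Leaving out one library moved it between -0.18 and -0.074. The smallest sizes were without knockdown-labelled replicate 2 (-0.074) or 5 (-0.091) and without control replicate 4 (-0.082), and with library totals alone it was called lower at -0.35 (adjusted p = 0.0427). U2af1l4, a paralog of the small subunit, had 1, 2, 1, 1 and 1 reads in the knockdown-labelled libraries against 5, 2, 3, 3 and 2 in the control libraries and was not tested; its predicted background exceeded its reads.

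Among the SF3 subunits, 5 of 9 were called higher, 0 lower and 4 not called. The background over all tested genes was 22.9% higher and 31.3% lower. The class median log2 fold change was 0.19 (range 0.13 to 0.33) on the TMM scale and -0.02 when scaled by library totals alone. Without one library the count called higher ran from 3 to 8: it was 8 without knockdown-labelled replicate 4, and 3 without control replicate 2 or control replicate 4. Of the 7 with a share under 5%, 4 were called higher, where 75.5% of all genes in that range were, and on the low-background scale the median of these 7 was -0.068. Sf3b2, an SF3B subunit next to the branch point, had 466, 503, 498, 478 and 478 CPM in the knockdown-labelled libraries, against 417, 343, 394, 373 and 402 in the control libraries, and the groups did not overlap. Its log2 fold change was 0.33 (SE 0.0582, adjusted p = 8.86e-06), and 0.084 (adjusted p = 0.123) on that scale. Sf3b1, the subunit that clamps the branch-point helix, was also called higher and did not overlap, at 34.6 ± 1.64 CPM per kilobase in the knockdown-labelled and 28.0 ± 1.82 in the control libraries (SD, n = 5 each). Sf3b5, a small subunit, was the lowest of the class in CPM per kilobase, where its range overlapped that of Sf3b4 in both groups. In CPM Sf3b4 was lower, with means of 12.5 in the knockdown-labelled and 11.0 in the control libraries. Sf3b5 had 21.7, 20.5, 23.6, 19.1 and 20.4 CPM in the libraries labelled knockdown against 17.8, 16.0, 19.3, 15.9 and 18.0 in the control libraries. Its highest control library was above the lowest knockdown-labelled one, and the log2 fold change was 0.27 (SE 0.11, adjusted p = 0.0298). That call was lost on leaving out knockdown-labelled replicate 3 (adjusted p = 0.0762) or control replicate 2 (0.0585) or 4 (0.0701).

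Among the Snrp genes, 5 of 11 tested were called higher, 1 lower and 5 not called, where 22.9% of all tested genes were higher and 31.3% lower. Of the 6 with a background share under 5%, 4 were called higher, where 75.5% of all genes in that range were. The median log2 fold change was 0.17 on the TMM scale, and -0.03 with library totals alone. Snrpb, which encodes the Sm proteins B and B′ of the ring on spliceosomal snRNAs, had 82.1, 76.8, 98.6, 75.9 and 91.5 CPM in the libraries labelled knockdown, against 75, 61.5, 69.4, 62.3 and 77.3 in the control libraries. The groups overlapped at control replicate 5. The log2 fold change was 0.3 (SE 0.0721, adjusted p = 0.000606), and 0.052 (adjusted p = 0.707) on the low-background scale. Snrpe, Sm protein E, had 8.7, 10.9, 11.1, 11.9 and 9.88 CPM in the libraries labelled knockdown against 6.74, 8.52, 5.7, 7.56 and 10.0 in the control libraries. Control replicate 5 lay within the knockdown-labelled range. Its log2 fold change of 0.45 was the highest of all the splicing genes (SE 0.175, adjusted p = 0.0269), and the call was lost without control replicate 1 (adjusted p = 0.0535) or 3 (0.0872). Snrpe had 31 to 67 reads in a library. With a background share of 6.2% it was not part of the low-background fit.

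Snrpn, a paralog of Snrpb that neurons express strongly and that is transcribed from the paternal allele together with Snurf, had 9, 15, 10, 14 and 10 reads in the libraries labelled knockdown, against 15, 26, 26, 18 and 21 in the control libraries. In CPM the groups did not overlap, which held in that direction for 14.2% of all tested genes. Snrpn was at 2.03 ± 0.458 CPM in the knockdown-labelled and 4.0 ± 1.09 in the control libraries (SD, n = 5 each). Its log2 fold change was -0.96 (SE 0.305, adjusted p = 0.00669), -1.07 in lane 7 and -0.73 in lane 8. Its background share was 30.1%, and of all genes with a share of 5% or more, 41.3% were called lower. Snrpn reached the filter's level in 2 of the knockdown-labelled and all 5 control libraries. Gm38393 covers 27.3% of its exon bases on the same strand, at 1.36 CPM, and Snurf, which covers 10.0%, had 0.0 CPM. Neuronal markers were lower in the same libraries, as given above, and their part in this value was not tested. Snrpg, Sm protein G, did not overlap in CPM per kilobase, at 1.28 ± 0.317 in the knockdown-labelled and 2.0 ± 0.079 in the control libraries (SD, n = 5 each), but was not called. Snrpg had 9 to 18 reads in a library and a background share of 25.5%. It reached the filter's level in 3 of the knockdown-labelled and all 5 control libraries. Of all tested genes, 14.2% lay apart in that direction, and 41.3% of those with a share of 5% or more were called lower. Snrpg was named after its values were seen. Snrpf, Sm protein F, had 1, 1, 3, 2 and 3 reads in the libraries labelled knockdown against 2, 0, 2, 4 and 3 in the control libraries and was not tested, with a share of 93.8%.

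Among the Prpf genes, 8 of 13 were called higher, 0 lower and 5 not called. The background over all tested genes was 22.9% higher and 31.3% lower. The class median log2 fold change was 0.2 (range -0.04 to 0.32), and -0.01 with library totals alone. The 8 called were the 8 with a background share under 5%, where 75.5% of all genes in that range were called higher. Prpf8, the scaffold at the catalytic centre of the spliceosome, had 432, 443, 467, 429 and 443 CPM in the knockdown-labelled libraries, against 392, 300, 350, 359 and 389 in the control libraries. The groups did not overlap, and control replicate 2 was the lowest. edgeR's log2 fold change was 0.31 (SE 0.0602, adjusted p = 4.09e-05), and 0.062 (adjusted p = 0.324) on the low-background scale. Prpf40b, a U1-associated bridging factor and the lowest of the class, had 23.8, 24.6, 23.8, 22.1 and 26.1 CPM in the libraries labelled knockdown against 24.8, 21, 28.3, 28.9 and 20.9 in the control libraries. All knockdown-labelled values fell inside the control range, and the log2 fold change was -0.043 (SE 0.101, adjusted p = 0.736).

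Sfpq, a paraspeckle protein that forms heterodimers with NONO and acts in splicing and transcription, had 284, 281, 298, 297 and 302 CPM in the libraries labelled knockdown, against 245, 215, 229, 227 and 246 in the control libraries. The groups did not overlap and both were narrow, at 292 ± 9.07 CPM in the knockdown-labelled and 232 ± 12.9 in the control libraries (SD, n = 5 each). On the log2 scale the fold change was 0.33 (SE 0.0579, adjusted p = 8.12e-06), 0.34 in lane 7 and 0.36 in lane 8, and 0.085 (adjusted p = 0.177) on the low-background scale.

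Other genes of the splicing machinery outside the symbol rule, 117 in 9 lists, were mostly called higher too: of 114 tested, edgeR called 77 higher (22.9% over all tested genes) and 0 lower (31.3% over all; DESeq2 also called 0 lower, and 0 were lower at an unadjusted p under 0.05), with a median log2 fold change of 0.22. Of the 76 with a background share under 5%, 66 were called higher, where 75.5% of all genes in that range were. The spliceosomal helicases had 9 of 9 called higher and the exon junction complex 5 of 5. Other splicing regulators had 19 of 22, SR-like proteins and SR kinases 12 of 14, other branch-point and splice-site factors 11 of 14, PRP19-complex and catalytic-step genes 10 of 17, and U snRNP and tri-snRNP genes 9 of 16. The snRNP assembly genes had 2 of 10 and the LSm genes, whose products form the U6 ring and a cytoplasmic decay complex, 0 of 7. The lists differed in background share. It was under 5% for 9 of 9 helicases and 3 of 5 exon junction complex genes. For the assembly genes that held for 2 of 10, and for the LSm genes for 1 of 7. At a share of 5% or more, 5.83% of all genes were called higher. Differences between these lists were not tested. On the low-background scale 3 of 76 were called higher (2.18% over all genes tested there) and 2 lower (1.88%). By p-value the leading genes were Strap, an SMN-complex protein, at 163 ± 4.79 CPM in the knockdown-labelled and 124 ± 8.21 in the control libraries, Rbm39, a U2AF-related splicing factor, at 416 ± 21.9 CPM in the knockdown-labelled and 322 ± 25.1 in the control libraries, and Crnkl1, a PRP19-complex protein, at 76.5 ± 3.12 CPM in the knockdown-labelled and 56.9 ± 4.95 in the control libraries (SD, n = 5 each). Their log2 fold changes were 0.39 for Strap (SE 0.0604, adjusted p = 1.14e-06), 0.37 for Rbm39 (SE 0.059, adjusted p = 1.95e-06) and 0.43 for Crnkl1 (SE 0.0698, adjusted p = 2.81e-06). On the low-background scale they were 0.15 for Strap (adjusted p = 0.0351), 0.12 for Rbm39 (0.0166) and 0.18 for Crnkl1 (0.0885).

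Ratios between paralogs within a library do not depend on scaling. Ratios were taken for 10 paralog pairs chosen after the data were seen, and are given as a description with no test. The log2 ratio of Snrpn to Snrpb reads was -5.35 ± 0.45 in the libraries labelled knockdown and -4.12 ± 0.48 in the control libraries (SD, n = 5 each), a difference of -1.23. The log2 ratio of Srsf12 to Srsf10 was -4.75 ± 0.63 in the knockdown-labelled and -3.56 ± 0.38 in the control libraries (SD, n = 5 each), a difference of -1.19. In both pairs all 5 knockdown-labelled libraries lay below all 5 control libraries. Their numerators are the genes already given as called lower, with high background shares and few reads, so the ratios are not independent of those calls. After background subtraction the differences were -1.24 for Snrpn to Snrpb and -0.81 for Srsf12 to Srsf10, and the groups overlapped in both pairs. Subtracted reads were set to at least 0.5, a floor that Srsf12 reached in both groups. Another 7 pairs differed by -0.26 to 0.04, among them Hnrnpll to Hnrnpl at 0.02 and Hnrnph2 to Hnrnph1 at 0.04.

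**Figure D4:**
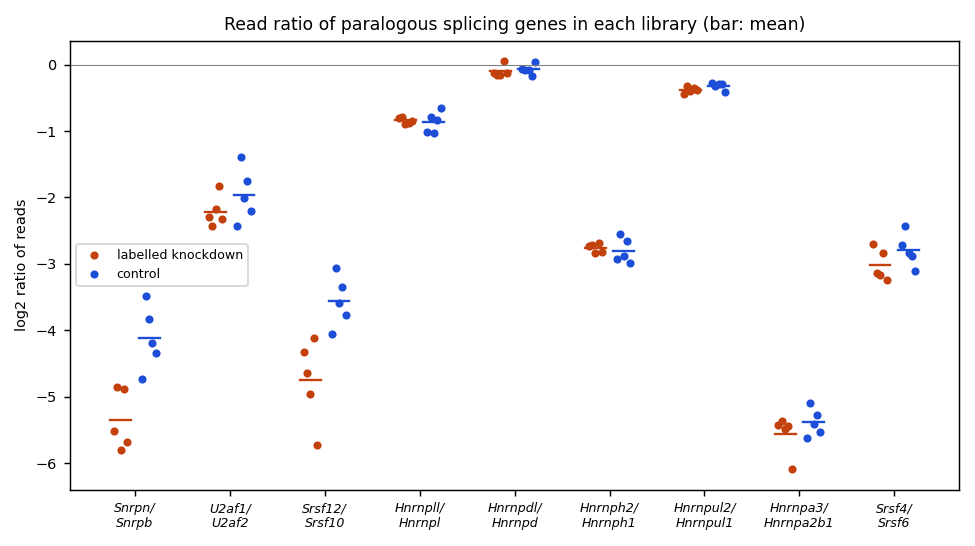
Log2 ratio of reads between paralogous splicing genes, one point per library, with knockdown-labelled libraries left of control libraries in each pair and a bar at the mean. Snrpn to Snrpb (mean -5.35 knockdown-labelled, -4.12 control) and Srsf12 to Srsf10 (-4.75 knockdown-labelled, -3.56 control) are apart, and the other pairs lie close together or overlap.

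Many splicing genes have processed pseudogenes, which can take or share their reads. The share of each gene's transcript 50-mers also found in genes elsewhere was at least 10% in 14 of the 69 genes, between 1% and 10% in 14 and under 1% in 41, with none shared in 21. Genes sharing at least 100 such 50-mers numbered 74, of which 68 are annotated as processed pseudogenes. The median level over all libraries was 5.46 CPM per kilobase in the first set (range 0.434 to 48.8), 9.53 in the second (1.4 to 41.1) and 18.3 in the third (0.232 to 94.2). Over the 69 genes the Spearman correlation of copied sequence with level was -0.29, a description across genes of the same libraries. Hnrnpa3 shared 26.9% of its 50-mers with other genes, and its 25 copy genes together had 17.7 CPM, more than its own mean of 11.9 ± 2.16 CPM in the knockdown-labelled and 10.3 ± 0.937 in the control libraries. Hnrnpf shared 43.2% (8 copy genes, 8.2 CPM in sum), Sf3b4 43.6% (1 copy gene), Hnrnpa1 28.2% (10 copy genes, 4.99 CPM) and U2af1 21.7% (3 copy genes, 1.39 CPM). How the counting treated reads that map to several places is not stated in the sources, and the levels of these genes are uncertain. Exons of other genes cover over 5% of the exon bases of 17 splicing genes. The largest overlaps were Snrpf with Ccdc38 on the other strand (65.9%), U2af1l4 with Gm49396 on the same strand (65.6%) and Srsf4 with Gm12992 (43.0%).

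**Figure D5:**
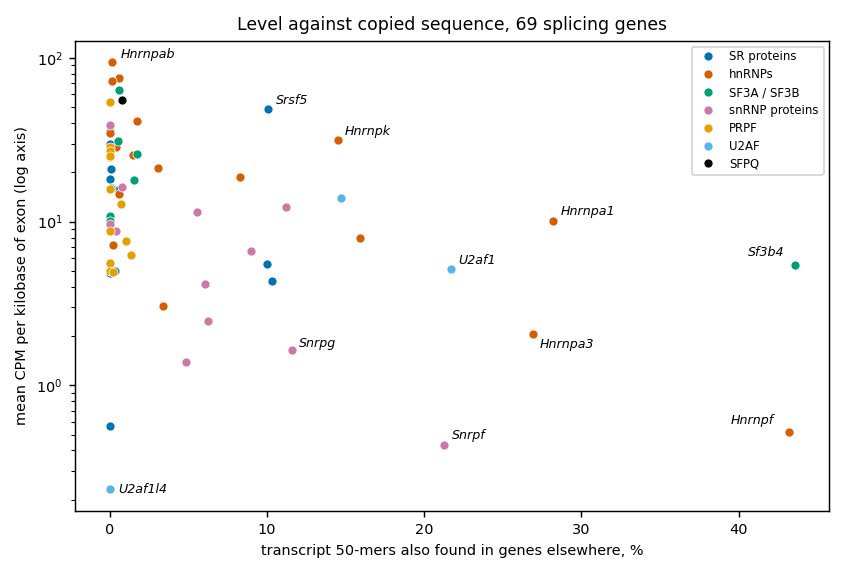
Level in CPM per kilobase of exon (log axis, mean of all 10 libraries) against the percentage of a gene's transcript 50-mers also found in genes elsewhere, one point per splicing gene, coloured by class. Genes with under 1% copied sequence range over the whole axis, and of those above 20% the highest is Hnrnpa1.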

How the data were processed

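The deposited tables hold whole-number read counts per gene, one per library, made by the authors with no normalization visible in the values. The submitters' processing notes name bcl2fastq and the builds GRCm38 and mm10, per the labels. The library kit marks strand, per the labels' protocols. Aligner, counter, strand setting and annotation: not given in the sources used here. GENCODE M21 supplied symbols, positions and exon lengths for 55230 genes, while 241 had no match; 92 ERCC entries with at most 2 reads per library were left out.

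Counts were filtered with filterByExpr, scaled with TMM and tested with edgeR 4.0.16 (quasi-likelihood, robust, group only) in R 4.3.3, with Benjamini-Hochberg adjustment over all 19263 tested genes and an adjusted p threshold of 0.05. Low-background genes are those with a background share under 5%; their second fit adjusts over those 4728 genes. Alternatives used DESeq2 1.42.0, other scalings and filters, lanes, the replicate block and each library left out. Lane numbers came from the sequencing file labels. Ratios of paralogs used a pseudocount of 0.5 reads, with no test. The edgeR test was checked on simulated counts. Same-numbered libraries of the groups did not deviate together, so replicate numbers were not used as pairs. No 2 libraries of one group agreed within sampling noise.

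The genes and the lists were chosen with earlier results of these data known. Values in every library are given for the highest and lowest tested gene of each class by level, the 5 called genes with the largest rises and up to 5 with the largest falls, and genes called on the low-background scale; companions are the 3 with the smallest p. The values of 1 gene, and a ratio that needs it, are not reported here, though it is included in the counts. Figures were drawn with matplotlib 3.10.9.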

Additional observations from a re-analysis of the deposited data

Results flagged for a closer look

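In 2 of 38 groups of 5 libraries examined, among the splicing genes named with values in every library, one library stood apart from the other 4 by Dixon's criterion at the 95% level, which chance alone meets in about 1 group of 20. Hnrnpa3 was at 8.18 CPM in knockdown-labelled replicate 5, against 12.3 to 13.4 CPM in the other 4 libraries labelled knockdown. U2af2 was at 47.4 CPM in knockdown-labelled replicate 4, against 61.2 to 63.8 CPM in the other 4.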

How the results depend on the processing

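The 44 splicing genes called higher remained called with DESeq2 (50 called), with its size factors in edgeR (51), with no filter (52), with the replicate block (44) and with lane as a covariate (44). The count was 24 with upper-quartile scaling, 13 with library totals, 26 with a filter of 5 CPM in 5 libraries, 0 in lane 8, 2 when scaled on low-background genes, 0 with background subtracted as well, 0 with background density as a covariate (4 higher and 3 lower at an unadjusted p under 0.05), and 39 to 50 on leaving out one library. The count called lower was 1 with DESeq2, 6 with totals, 1 with no filter, 0 with the stricter filter, 1 in lane 7, 0 in lane 8, 0 with either low-background fit, 0 with the covariate, and 1 to 3 on leaving out one library. Relative to TMM, the median of all genes shifted by -0.146 with upper-quartile scaling and by -0.206 with library totals, and with totals the class medians of SF3 (-0.02), Prpf (-0.01) and Snrp (-0.03) fell below 0. The median log2 fold change of the splicing genes was 0.32 with DESeq2 (size factors and test alike), 0.10 with upper-quartile scaling, 0.04 with totals, 0.38 with no filter, 0.13 with the stricter filter, 0.29 in lane 7, 0.03 on low-background genes, 0.02 with subtraction, 0.03 with the covariate, and 0.22 to 0.29 without one library. Of the other splicing-machinery genes, 26 were higher with upper-quartile scaling (8.75% over all genes tested in that fit) and 11 with totals (3.94%). The stricter filter gave 36 higher (17.1%) and lane 8 gave 2 (0.328%). On low-background genes 3 were higher (2.18%), with subtraction 0 (0.761%) and with the covariate 0 (0.0208%). Without one library 70 to 80 were higher, against 77 of 114 tested with all libraries. Called lower were 3 with totals (40.9%), 2 on low-background genes (1.88%) and 1 with subtraction (1.04%). Directions turned for U2af2 with upper-quartile scaling (-0.039), totals (-0.097), the stricter filter (-0.011), lane 8 (-0.037), low-background genes (-0.14), subtraction (-0.13) and the covariate (-0.43), and for Prpf40b with DESeq2 (0.027), no filter (0.088) and one library left out (-0.083 to 0.026). They also turned for Hnrnpa3 in lane 8 (-0.0034), and with the covariate for Snrpb (-0.082), Prpf8 (-0.0023) and U2af1 (0.12). The covariate did not overlap between the groups, so values and signs from that fit hardly tell the group from the background. Among ratios, Hnrnpa3 to Hnrnpa2b1 turned to 0.13 after subtraction, and with one library left out Hnrnpll to Hnrnpl ranged from -0.02 to 0.07, Hnrnpdl to Hnrnpd from -0.06 to 0.0 and Hnrnph2 to Hnrnph1 from 0.0 to 0.1. The cause of these changes was not tested. The replicate block changed neither count, and same-numbered libraries correlated from -0.228 to 0.17 in their deviations. Depth limits Srsf12, Snrpn, Snrpg, Hnrnpf, Snrpf and U2af1l4, which had at most 26 reads in any library.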
